A study of Homo sapiens with 12 samples.

Results

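The genes described here are 50 named genes of DNA replication and mitosis, followed across 4 groups of cells kept at 2 CO2 levels with or without lipopolysaccharide (LPS). They were given as a list and found by matching each Ensembl identifier to its symbol, which placed all 50 among 57500 gene identifiers. Each was counted once by known function: 27 in S phase or at its start, 20 in G2 or mitosis (called mitotic below), and 3 as D-type cyclins of G1. CCNA2 was counted with the mitotic genes. CDC25A was counted with the S-phase genes because it acts at the start of S phase.

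The cells were THP-1, a dividing monocytic line first grown from a human leukaemia, carrying a lentiviral non-target shRNA in every group. They were kept for 4 h in buffered medium at 10% CO2 (hypercapnia) or 5% CO2 (the usual culture level), and LPS, a bacterial wall component that activates TLR4, was present at 2.5 µg/ml for the last 2 h in 1 group at each level. The groups were therefore 10% CO2 with LPS, 5% CO2 with LPS, 10% CO2 and 5% CO2, each with 3 libraries of poly(A)-selected RNA. THP-1 is 1 leukaemic line, and no untransduced cells were part of the groups.

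Cells enter the cycle when D-type cyclins with CDK4 or CDK6, and then E-type cyclins with CDK2, release E2F factors, which switch on the genes of replication. Licensing factors load the MCM helicase on DNA in G1, and the helicase and polymerases work in S phase. Genes of G2 and mitosis are switched on later, through promoters that carry CHR and CCAAT elements, so the 2 sets of transcripts mark different stages of the cycle. In bulk RNA, fewer cells in a stage and less RNA per cell cannot be told apart.

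The library totals were 17.1 to 22.2 M counts, and the 50 genes took 0.514 to 0.797% of them. Levels are CPM, read counts scaled by library size with TMM factors, and 3 counts in a library corresponded to 0.135 to 0.175 CPM. A gene was called when edgeR's quasi-likelihood test, adjusted by Benjamini-Hochberg over 16402 genes, gave p under 0.05, and 49 of the 50 genes were tested. No label names a separate culture for each replicate, so the p-values rest on the spread of these 3 libraries a group, and that spread may be technical only. Monocyte transcripts were present at unlike levels, with SPI1 at 261 to 526 CPM and LYZ at 78.7 to 106 CPM. CD14 (4.84 to 15.6 CPM), MPO (3.01 to 5.39 CPM) and CD68 (1.38 to 2.07 CPM) were low, beside 9.66 to 17.4 CPM for the B-cell gene PAX5. The T-cell gene CD3E and the epithelial gene EPCAM reached at most 0.0591 and 0.208 CPM. The 5 T-cell markers summed to 0.971 to 2.89 CPM and the 4 B-cell markers to 13.4 to 20.4 CPM, mostly PAX5, and HBA1 was at 0. CEBPA varied from 86.3 to 876 CPM, the widest range in CPM of the 11 monocyte markers, followed by SPI1, so their summed level mostly follows these genes. It was 832 to 971 CPM with LPS at 10% CO2 and 945 to 1154 CPM with LPS at 5% CO2, against 1248 to 1351 and 1269 to 1618 CPM without LPS. The mitochondrial share of counts was 2.28 to 4.15% at 10% against 1.28 to 1.78% at 5% CO2 with LPS, and 2.01 to 3.05% against 1.31 to 1.96% without it. The part of either in the results below was not tested.

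The promoters show how the S-phase and mitotic genes differ in sequence, and 5 of them are printed because their genes stand for the patterns that follow. The 250 bases before the start come from RefSeq (GRCh38.p14). Each is written 5′ to 3′ on the gene's strand, and the capitals mark 3 kinds of letters on either strand: E2F-type (TTTGGCGC, TTTCCCGC, TTTCGCGC or TTTGCCGC), CHR-type (TTTGAA) and the CCAAT box (CCAAT). The first 3 belong to mitotic genes: CDK1 at chr10:60778081-60778330 on the plus strand, CDC20 at chr1:43358731-43358980 on the plus strand, and KIF11 at chr10:92592880-92593129 on the plus strand. The other 2 belong to S-phase genes: MCM6 at chr2:135876444-135876693 on the minus strand, and a start of UHRF1 at chr19:4909894-4910143 on the plus strand.
CDK1: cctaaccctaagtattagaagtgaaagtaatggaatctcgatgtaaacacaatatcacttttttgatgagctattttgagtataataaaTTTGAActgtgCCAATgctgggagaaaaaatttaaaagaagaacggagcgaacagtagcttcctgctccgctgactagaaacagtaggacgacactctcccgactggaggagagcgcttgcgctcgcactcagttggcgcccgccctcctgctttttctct
CDC20: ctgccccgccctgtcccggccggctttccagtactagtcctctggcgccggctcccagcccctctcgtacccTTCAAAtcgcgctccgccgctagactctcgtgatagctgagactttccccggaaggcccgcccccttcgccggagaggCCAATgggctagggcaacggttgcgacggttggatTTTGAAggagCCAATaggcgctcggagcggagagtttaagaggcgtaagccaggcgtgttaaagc
KIF11: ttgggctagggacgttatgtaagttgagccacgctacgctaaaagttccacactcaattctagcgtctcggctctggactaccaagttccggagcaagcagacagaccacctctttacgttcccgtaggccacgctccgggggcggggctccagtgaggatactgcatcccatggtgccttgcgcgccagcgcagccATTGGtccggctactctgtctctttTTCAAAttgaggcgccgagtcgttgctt
MCM6: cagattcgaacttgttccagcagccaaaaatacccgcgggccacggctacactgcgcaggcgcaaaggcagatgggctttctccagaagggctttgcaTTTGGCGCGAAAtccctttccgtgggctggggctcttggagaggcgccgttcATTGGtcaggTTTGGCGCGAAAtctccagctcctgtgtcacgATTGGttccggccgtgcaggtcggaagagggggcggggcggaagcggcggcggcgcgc
UHRF1: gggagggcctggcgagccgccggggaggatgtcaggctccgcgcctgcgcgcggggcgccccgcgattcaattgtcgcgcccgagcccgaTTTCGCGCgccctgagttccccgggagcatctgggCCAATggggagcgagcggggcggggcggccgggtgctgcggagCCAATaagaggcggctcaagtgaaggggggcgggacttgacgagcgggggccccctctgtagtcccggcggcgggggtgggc
KIF11 held its CHR-type letters 28 bases and its CCAAT box 53 bases before the start. CDC20 held CHR-type letters 178 and 65 bases and CCAAT boxes 100 and 55 bases before the start. MCM6 held 4 E2F-type matches that overlap in pairs, beginning 152, 148, 90 and 86 bases before the start, and UHRF1 held 1 at 160 bases.

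RefSeq promoters were at hand for 40 of the 50 genes. E2F-type letters stood in 13 of 23 S-phase genes (56.5%) and in 1 of 16 mitotic genes (6.2%), beside 3.4% of 27305 genes in the table. CHR-type letters ran the other way, in 1 of 23 S-phase genes (4.3%) and 9 of 16 mitotic genes (56.2%), beside 16.1% of all genes. CCAAT boxes were in 16 of 23 S-phase and 14 of 16 mitotic genes, beside 37.0% of all. CDK1 was the mitotic gene with E2F-type letters, in the window of a second start at chr10:60778228-60778477, which also held 2 CHR-type and 2 CCAAT matches. A match describes the letters only.

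Most mitotic genes that changed with LPS fell, and the S-phase genes that changed went both ways. At 10% CO2, 10 of 20 mitotic genes fell and 1 rose, and of 27 S-phase genes 6 fell and 2 rose. At 5% CO2, 5 mitotic genes fell and 1 rose, and 3 S-phase genes fell and 1 rose. Over all 49 tested genes of the list this made 21 calls (4 higher, 17 lower) at 10% CO2, where 35.2% of all genes were called (16.6% higher, 18.6% lower). There were 12 calls (3 higher, 9 lower) at 5% CO2, where 24.9% of all genes were called (11.8% higher, 13.1% lower). The shares called were 42.9% and 24.5% of the list, so at 5% CO2 the list was called about as often as all genes.

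The medians followed the same split. The median log2 change with LPS at 10% CO2 was −0.29 for mitotic and −0.01 for S-phase genes, beside −0.02 for all genes. At 5% CO2 it was −0.13 for mitotic and 0.03 for S-phase genes, beside −0.01 for all genes. Negative changes were 18 of 20 mitotic and 14 of 27 S-phase genes at 10% CO2, and 17 of 20 and 13 of 27 at 5% CO2. The S-phase shares, 51.9% and 48.1%, were close to the 52.1% and 51.8% of all genes. The split into higher and lower S-phase calls moved with the scaling: with RLE size factors 5 S-phase genes were higher and 5 lower at 10% CO2, and with a correction for GC content 8 were higher and 4 lower. The mitotic calls were 1 higher and 9 lower with RLE, and 1 higher and 11 lower with the GC correction. At 5% CO2 the GC correction gave 4 higher and 2 lower S-phase calls, and 1 higher and 4 lower mitotic calls.

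**Figure D1:**
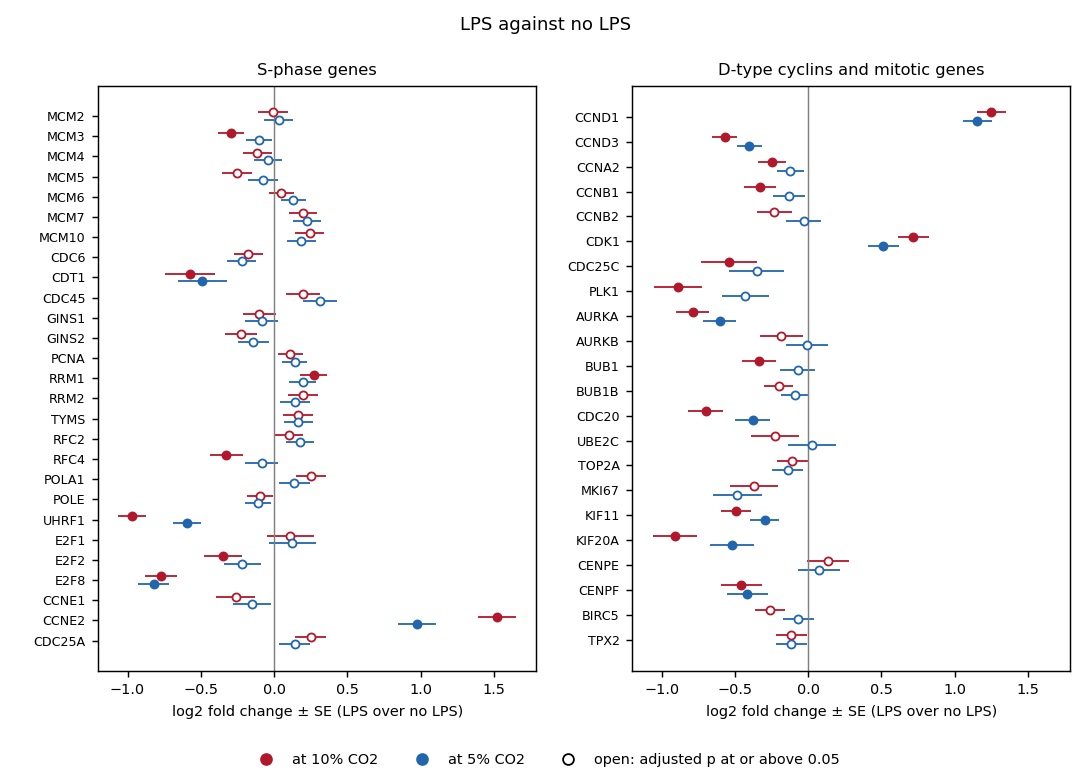
Log2 fold change with LPS over no LPS (horizontal axis, points ± SE) for each tested gene, at 10% CO2 (red) and 5% CO2 (blue), with filled points where the adjusted p was under 0.05. The mitotic points lie mostly left of 0, CDK1 at 0.72 and 0.51 lies right of it, and the S-phase points lie on both sides.

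The LPS comparisons at the 2 CO2 levels share no library, so their values can be set side by side. The change had the same sign at both levels for 47 of 49 genes. Across these 49 genes Pearson's r was 0.96, as a description of genes that are not independent. All 12 genes called at 5% CO2 were called in the same direction at 10% CO2, which is 100% of the calls at 5% and 57.1% of those at 10%. The shares of same signs and shared calls are not given for all genes, so this likeness is not read as a trait of the list. The size of the change was larger at 10% CO2 for 35 of 49 genes (71.4%), beside 63.3% of all genes tested.

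Among the cyclins of G1, LPS raised one and lowered another. CCND1, a partner of CDK4 and CDK6 at chr11:69641087-69654474, had 37.8, 35.8 and 34.3 CPM at 10% CO2 with LPS, against 16.2, 15.5 and 13.7 CPM at 10% CO2 without it. At 5% CO2 it had 27.8, 26.5 and 26.0 CPM with LPS, against 12.6, 11.5 and 11.9 CPM without it. Every LPS library lay above every library without LPS, and the change was 1.25 ± 0.10 (SE, adjusted p = 8.94e-09) at 10% and 1.16 ± 0.10 (adjusted p = 5.19e-08) at 5% CO2. CCND1 shares 497 exon bases with the antisense gene LTO1, whose own changes were −0.13 and −0.29 and not called.

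CCND3, the most abundant D-type cyclin here, moved the other way. It had 311, 272 and 297 CPM at 10% CO2 with LPS, against 416, 414 and 477 CPM without LPS. In cells at 5% CO2 the values were 371, 336 and 324 CPM with LPS, against 479, 468 and 415 CPM without LPS. The groups did not overlap, and CCND3 fell by 0.57 ± 0.09 (adjusted p = 3.6e-05) and by 0.40 ± 0.09 (adjusted p = 0.00165) on the log2 scale. Per kb of exon, CCND3 averaged 65.8 CPM and CCND1 4.65 CPM, so CCND3 remained the higher transcript. CCND2 was near the count floor, with 0.0492 to 0.551 CPM and 42 counts over the 12 libraries, and was not tested.

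CCNE2, an E-type cyclin that activates CDK2 at the start of S phase, gave the largest rise of the list at 10% CO2. It had 62.3, 83.0 and 64.3 CPM at 10% CO2 with LPS, against 25.2, 25.6 and 22.2 CPM without LPS. At 5% CO2 the values were 44.2, 51.2 and 61.0 CPM with LPS, against 25.2, 25.0 and 29.2 CPM without LPS. No library of one group reached the other, and the changes were 1.52 ± 0.13 (adjusted p = 2.63e-08) and 0.98 ± 0.13 (adjusted p = 1.2e-05). CCNE2 shares 1633 of its 4397 exon bases with genes on the other strand, INTS8 among them, and the strand setting of the counts is not given in the sources used here. INTS8 changed by 0.20 at 10% (adjusted p = 0.143) and 0.01 at 5% CO2 with LPS. CCNE1, the paralogue of CCNE2, was not called, at −0.26 (95% interval −0.56 to 0.04) and −0.15 (−0.45 to 0.15).

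**Figure D2:**
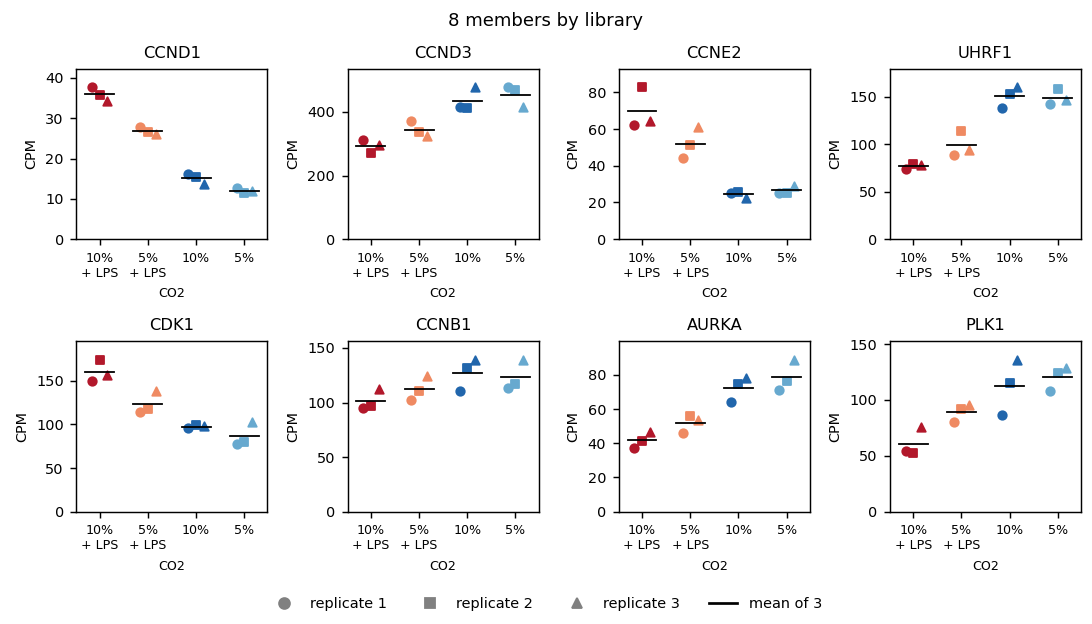
TMM-scaled CPM (vertical axes, from 0) of 8 genes in each of the 12 libraries, by group, with the mean of 3 as a line. CCND1, CCNE2 and CDK1 are higher with LPS, while CCND3, UHRF1, AURKA and PLK1 are lower with it; CCNB1 fell at 10% CO2.

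The E2F factors of the list differed among themselves. E2F8, a repressor of E2F target genes, had 19.5, 19.8 and 19.8 CPM at 10% CO2 with LPS, against 31.4, 34.9 and 34.4 CPM without LPS. Its 5% CO2 values were 20.4, 24.4 and 23.8 CPM with LPS, against 35.5, 40.5 and 45.3 CPM without LPS. These groups did not overlap, and E2F8 fell by 0.77 ± 0.11 (adjusted p = 1.49e-05) and by 0.82 ± 0.11 (adjusted p = 8.88e-06). The activator E2F1 was at 0.11 (95% interval −0.26 to 0.48) and 0.13 (−0.24 to 0.49). The activator E2F2 fell by 0.35 ± 0.13 (adjusted p = 0.0437) at 10% CO2, a call that was lost with the GC correction (−0.19, adjusted p = 0.244) and in 6 of 12 fits without 1 library (adjusted p = 0.176 without 10% CO2 with LPS replicate 3). RLE size factors (−0.33, adjusted p = 0.0566) and DESeq2 (−0.33, adjusted p = 0.0578) lost it too.

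Of the 12 genes of licensing and the helicase, 2 fell at 10% CO2 and 1 fell at 5% CO2. The shares called were 16.7% and 8.3%, below the 35.2% and 24.9% of all genes. Which genes passed moved with the scaling. With the GC correction the fall of CDT1 was lost at both levels, while CDC45 (0.32, adjusted p = 0.0201) and MCM7 (0.37, adjusted p = 0.0013) rose at 10% CO2, as they did at 5% CO2 (0.37, adjusted p = 0.00937, and 0.31, adjusted p = 0.00621), and MCM10 rose at 10% CO2 (0.23, adjusted p = 0.0452). CDT1, which loads the helicase with CDC6, had 59.9, 75.0 and 69.1 CPM at 10% CO2 with LPS, against 72.5, 117 and 114 CPM without LPS. The levels at 5% CO2 were 68.1, 79.1 and 83.6 CPM with LPS, against 90.5, 125 and 109 CPM without LPS. The groups overlapped at 10% CO2, where replicate 1 without LPS lay below replicate 2 with it, and did not overlap at 5% CO2. CDT1 fell by 0.57 ± 0.17 (adjusted p = 0.0171) and by 0.49 ± 0.17 (adjusted p = 0.0476). The values with the GC correction were −0.32 (adjusted p = 0.105) and −0.39 (adjusted p = 0.0608), that at 5% CO2 with RLE size factors was −0.47 (adjusted p = 0.0537), and the calls were lost in 3 and 9 of 12 fits without 1 library (at most adjusted p = 0.0923 without 10% CO2 replicate 3, and 0.173 without 5% CO2 replicate 2).

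MCM3, a helicase subunit, had 348, 358 and 362 CPM at 10% CO2 with LPS, against 390.5, 466 and 455 CPM without LPS. It fell by 0.30 ± 0.09 there (adjusted p = 0.014), without overlap, and the call was lost if 10% CO2 replicate 2 was left out (−0.25, adjusted p = 0.0748), and likewise for replicate 1 of the LPS libraries at 10% CO2 (−0.28, adjusted p = 0.0536). At 5% CO2 it had 353, 433 and 391 CPM with LPS, against 398, 457 and 407 CPM without LPS, and was not called. MCM2, a subunit of the same ring, had 268, 316 and 292 CPM at 10% CO2 with LPS, against 255, 314 and 311 CPM without LPS. In cells at 5% CO2 the values were 279, 335 and 293 CPM with LPS, against 281, 331 and 275 CPM without LPS. Its changes of −0.01 (95% interval −0.24 to 0.23) and 0.03 (−0.20 to 0.26) lay within the spread of replicates.

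At the replication fork and in nucleotide supply, 6 of 9 genes had positive changes at each CO2 level, 3 were called at 10% and 1 at 5% CO2. The shares called were 33.3% and 11.1%, beside 35.2% and 24.9% of all genes. Negative changes made up 33.3% at each level, beside 52.1% and 51.8% of all genes. RRM1, the large subunit of ribonucleotide reductase, rose by 0.27 ± 0.09 at 10% CO2 (adjusted p = 0.0277). Its call was lost in 4 of 12 fits without 1 library, with adjusted p = 0.124 without 10% CO2 with LPS replicate 2, and with no filter (adjusted p = 0.0693). RFC4, of the clamp loader, fell by 0.33 ± 0.11 (adjusted p = 0.0316), lost in 4 of 12 such fits with adjusted p = 0.19 without 10% CO2 with LPS replicate 1, and with only the compared groups (adjusted p = 0.0679). PCNA, the sliding clamp, had 107, 117 and 110.0 CPM at 10% CO2 with LPS, against 94.7, 108 and 107 CPM without LPS. It had 112, 129 and 122 CPM at 5% CO2 with LPS, against 105, 118 and 106 CPM without LPS. The groups overlapped, and its changes were 0.11 (95% interval −0.09 to 0.31) and 0.14 (−0.06 to 0.34).

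UHRF1, which directs maintenance methylation to newly copied DNA, had the largest change among the fork genes. It had 73.4, 79.6 and 77.7 CPM at 10% CO2 with LPS, against 138, 153 and 161 CPM without LPS. Its 5% CO2 values were 88.4, 114 and 94.3 CPM with LPS, against 143, 159 and 146 CPM without LPS. The groups did not overlap, and UHRF1 fell by 0.97 ± 0.10 (adjusted p = 1.8e-07) and by 0.60 ± 0.09 (adjusted p = 9.5e-05). It had the largest fall of the 49 genes at 10% CO2, by estimate. The printed promoters of UHRF1 and MCM6 both carry E2F-type letters, and MCM6 changed by 0.05 (95% interval −0.15 to 0.25) there and was not called.

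Among the kinases and cyclins of G2 and mitosis, CDK1 rose with LPS, while CCNB1 and CCNA2, its cyclin partners, fell at 10% CO2. CDK1, the kinase that drives entry into mitosis, had 149, 174 and 157 CPM at 10% CO2 with LPS, against 95.5, 99.0 and 98.0 CPM without LPS. The levels at 5% CO2 were 115, 118 and 139 CPM with LPS, against 77.2, 80.0 and 103 CPM without LPS. All LPS libraries were above those without LPS at the same CO2 level, and CDK1 rose by 0.72 ± 0.11 (adjusted p = 2.75e-05) and 0.51 ± 0.11 (adjusted p = 0.00122). CCNB1 fell by 0.33 ± 0.11 at 10% CO2 (adjusted p = 0.0235) and changed by −0.13 (95% interval −0.38 to 0.12) at 5% CO2. CCNA2 fell by 0.25 ± 0.09 at 10% CO2 (adjusted p = 0.0477), and CCNB2 was not called. The call of CCNB1 was lost in 4 of 12 fits without 1 library (adjusted p = 0.104 without 10% CO2 with LPS replicate 1), and that of CCNA2 in 9 of 12 (adjusted p = 0.204 without the same library). The CCNA2 call was also lost with RLE size factors (adjusted p = 0.0687), by DESeq2 (adjusted p = 0.0723) and with only the compared groups (adjusted p = 0.0602). CCNA2 shares 254 exon bases with the antisense gene EXOSC9, which rose.

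PLK1, a kinase of mitotic entry and spindle assembly, had 54.2, 52.6 and 75.5 CPM at 10% CO2 with LPS, against 86.9, 115 and 136 CPM without LPS. At 5% CO2 it had 80.2, 92.1 and 95.7 CPM with LPS, against 108, 124 and 129 CPM without LPS. The groups did not overlap at either level, and PLK1 fell by 0.89 ± 0.16 at 10% CO2 (adjusted p = 0.000566), and its change at 5% CO2 was −0.43 ± 0.16 (adjusted p = 0.0643). That change was called by DESeq2 (−0.41, adjusted p = 0.0379), with no filter (−0.42, adjusted p = 0.000647), with only the compared groups (−0.43, adjusted p = 0.00346) and in 3 of 12 fits without 1 library. PLK1 shares 612 exon bases with the antisense genes ENSG00000261266 and ERN2, neither of which was tested. AURKA, the kinase that activates PLK1, had 37.0, 41.5 and 46.6 CPM at 10% CO2 with LPS, against 64.0, 74.5 and 78.0 CPM without LPS. In cells at 5% CO2 the values were 45.9, 56.0 and 53.6 CPM with LPS, against 71.0, 76.7 and 88.9 CPM without LPS. These libraries were fully apart too, and AURKA fell by 0.79 ± 0.11 (adjusted p = 2.27e-05) and by 0.61 ± 0.11 (adjusted p = 0.000505). AURKB, of the chromosomal passenger complex, was not called, at −0.18 (95% interval −0.52 to 0.15) and −0.01 (−0.34 to 0.32).

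CDC20, which activates the anaphase-promoting complex, was the highest transcript of the list per length at 196 CPM per kb. It had 276, 271 and 351 CPM at 10% CO2 with LPS, against 411, 492 and 555 CPM without LPS. Its 5% CO2 values were 319, 349.6 and 391 CPM with LPS, against 413, 478 and 487 CPM without LPS. The groups did not overlap, and CDC20 fell by 0.70 ± 0.12 (adjusted p = 0.000174) and by 0.38 ± 0.12 (adjusted p = 0.0251). The call at 5% CO2 was lost with the GC correction (−0.30, adjusted p = 0.0584) and in 4 of 12 fits without 1 library (adjusted p = 0.108 without 5% CO2 with LPS replicate 1). UBE2C, the ubiquitin-conjugating enzyme of the same complex, was not called.

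Motor and kinetochore genes of the list fell with LPS in part. KIF20A, a kinesin of the central spindle, had 25.7, 24.9 and 32.0 CPM at 10% CO2 with LPS, against 42.0, 54.1 and 58.9 CPM without LPS. The levels at 5% CO2 were 26.8, 35.7 and 39.3 CPM with LPS, against 45.0, 45.9 and 55.0 CPM without LPS. It fell by 0.91 ± 0.15 (adjusted p = 0.000149) and by 0.52 ± 0.15 (adjusted p = 0.0162), and the groups did not overlap. Its 200 shared exon bases lie opposite BRD8 and CDC23, and BRD8 itself fell by 0.45 and 0.30. The call of KIF20A at 5% CO2 was lost without replicate 3 of 5% CO2 (adjusted p = 0.083) and without replicate 1 of 5% CO2 with LPS (adjusted p = 0.0815).

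KIF11, the motor that separates the spindle poles, had 66.2, 66.3 and 80.6 CPM at 10% CO2 with LPS, against 103, 98.2 and 99.1 CPM without LPS. At 5% CO2 it had 81.0, 97.2 and 82.0 CPM with LPS, against 101, 101 and 118 CPM without LPS. The groups stayed apart, and KIF11 fell by 0.49 ± 0.10 (adjusted p = 0.000701) and by 0.30 ± 0.10 (adjusted p = 0.0342), the second call being lost in 3 of 12 fits without 1 library (adjusted p = 0.167 without 5% CO2 replicate 3). CENPF, a kinetochore protein, had 123, 104 and 136 CPM at 10% CO2 with LPS, against 185, 162 and 151 CPM without LPS. It had 114, 153 and 129.9 CPM at 5% CO2 with LPS, against 158, 154 and 216 CPM without LPS. It fell by 0.46 ± 0.14 (adjusted p = 0.0204) and by 0.41 ± 0.14 (adjusted p = 0.0431). Those calls were lost in 2 and 7 of 12 fits without 1 library (adjusted p = 0.0978 without replicate 2 of 10% CO2 with LPS, and 0.213 without replicate 3 of 5% CO2), and that at 5% CO2 also with only the compared groups (adjusted p = 0.0678).

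MKI67, the proliferation marker Ki-67, lay near the threshold with LPS. It had 344, 296 and 359 CPM at 10% CO2 with LPS, against 459, 434 and 398 CPM without LPS. In cells at 5% CO2 the values were 305, 454 and 352 CPM with LPS, against 447, 443 and 662 CPM without LPS. The groups were apart at 10% CO2 only, and the changes were −0.37 (95% interval −0.75 to 0.01, adjusted p = 0.106) and −0.48 (−0.87 to −0.10, adjusted p = 0.0509). MKI67 was called lower at 5% CO2 by DESeq2 (−0.47, adjusted p = 0.0144), with no low-count filter (−0.47, adjusted p = 0.000236) and in 3 of 12 fits without 1 library. It was called lower at 10% CO2 with no filter (−0.39, adjusted p = 0.00227), with only the compared groups (−0.36, adjusted p = 0.00718) and without 5% CO2 replicate 3 (−0.37, adjusted p = 0.0226). CENPE, another kinetochore motor, had positive changes of 0.14 and 0.07 and was not called. CDC25C, the phosphatase that activates CDK1, fell by 0.54 ± 0.19 at 10% CO2 (adjusted p = 0.0345), and BUB1, of the spindle checkpoint, fell by 0.33 ± 0.12 (adjusted p = 0.0332). These 2 calls were lost in 5 and 4 of 12 fits without 1 library (adjusted p = 0.183 without 10% CO2 replicate 3, and 0.179 without 10% CO2 with LPS replicate 1). CDC25C shares 293 exon bases with the antisense gene FAM53C, which rose by 1.58 at 10% and 1.59 at 5% CO2.

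The other genes of the list were not called with LPS in the fit reported, though several passed in other settings. In licensing and the helicase, the estimates at 10% and 5% CO2 were −0.11 and −0.04 for MCM4, −0.25 and −0.08 for MCM5, and 0.20 and 0.22 for MCM7, which are helicase subunits. CDC6, a loader, was at −0.17 and −0.22, and MCM10 and CDC45, which act when the helicase is switched on, were at 0.24 and 0.19 and at 0.20 and 0.31. GINS1 and GINS2, of the GINS complex, were at −0.10 and −0.09 and at −0.23 and −0.14. These estimates lay on both sides of 0, and the smallest adjusted p among them was 0.0601, for CDC45 at 5% CO2. CDC45 was called higher at 5% CO2 with RLE size factors (0.33, adjusted p = 0.0463), by DESeq2 (0.33, adjusted p = 0.0412), with no filter (0.32, adjusted p = 0.0355) and with only the compared groups (0.31, adjusted p = 0.0425). At 10% CO2, MCM10 was called higher with RLE size factors (0.27, adjusted p = 0.0411) and by DESeq2 (0.27, adjusted p = 0.0352), and MCM5 was called lower with no filter (−0.28, adjusted p = 0.0228).

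At the fork, POLA1 of the priming polymerase was at 0.25 and 0.14, POLE of the leading strand at −0.10 and −0.11, and the clamp loader gene RFC2 at 0.10 and 0.18. RRM2, the small subunit of ribonucleotide reductase, was at 0.20 and 0.14, and CDC25A, a phosphatase that activates CDK2, at 0.25 and 0.14. TYMS, which makes thymidylate, was at 0.16 and 0.17 and shares 648 exon bases with other genes. All but POLE were positive at both levels. With the GC correction TYMS (0.25, adjusted p = 0.042), RFC2 (0.21, adjusted p = 0.0393) and CDC25A (0.33, adjusted p = 0.0133) were called higher at 10% CO2, and RFC2 at 5% CO2 (0.23, adjusted p = 0.028). POLA1 and CDC25A were called higher at 10% CO2 with RLE size factors (0.28, adjusted p = 0.0468, and 0.27, adjusted p = 0.0478) and by DESeq2 (adjusted p = 0.0434 and 0.0447). Among mitotic genes TOP2A, which untangles DNA, was at −0.11 and −0.14, TPX2, a spindle activator of AURKA, at −0.12 and −0.12, and BIRC5 of the passenger complex at −0.26 and −0.07. The checkpoint gene BUB1B was at −0.20 and −0.09, CCNB2 at −0.23 and −0.03, and UBE2C at −0.23 and 0.03. All but UBE2C at 5% CO2 were negative. At 10% CO2 BIRC5 was called with no filter (−0.29, adjusted p = 0.0318) and BUB1B with the GC correction (−0.23, adjusted p = 0.0436).

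Of the 21 calls at 10% CO2, 11 held in each of the 12 fits without 1 library: CCND1, CCNE2, CDK1, CCND3, UHRF1, E2F8, AURKA, PLK1, CDC20, KIF11 and KIF20A. Of the 12 calls at 5% CO2, 7 held in each: CCND1, CCNE2, CDK1, CCND3, UHRF1, E2F8 and AURKA. The groups did not overlap for 23 of 49 genes at 10% CO2, where that held for 46.1% of all genes, and for 14 of 49 at 5% CO2, where it held for 39.2%.

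**Figure D3:**
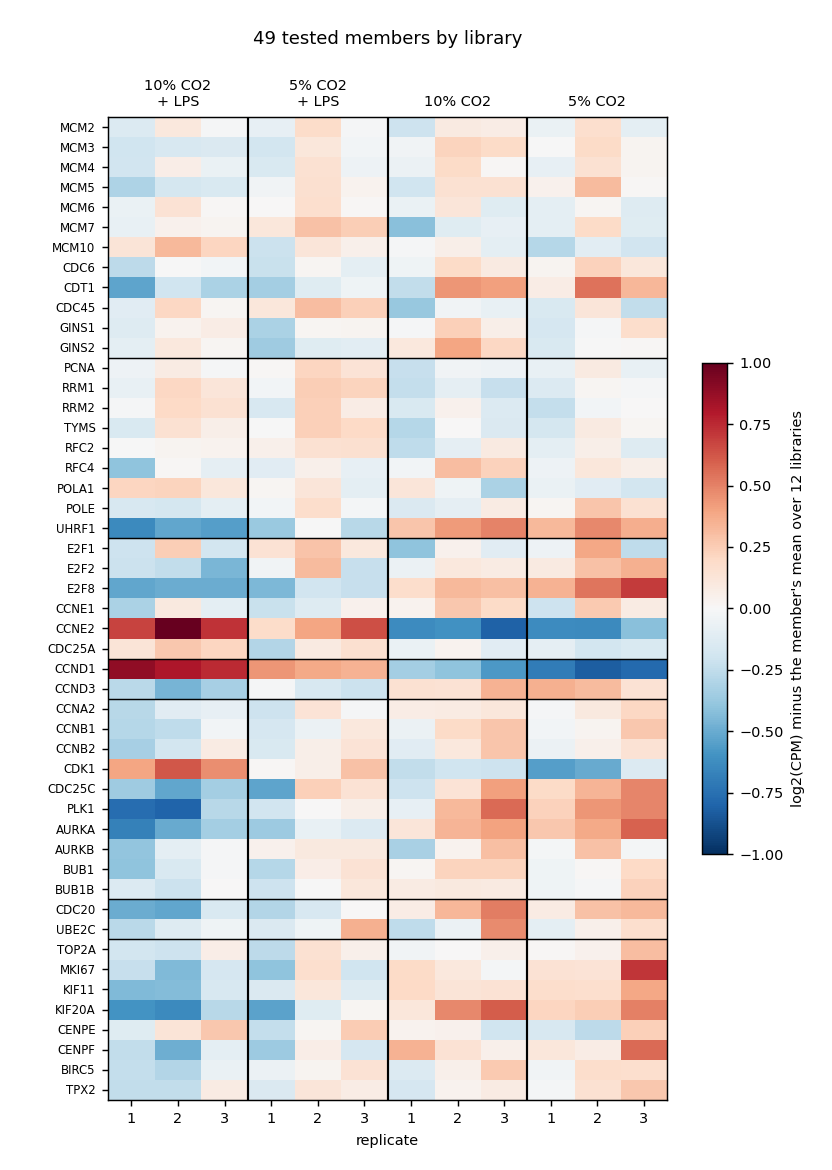
Log2(CPM) of each of the 49 tested genes minus its mean over the 12 libraries (colour), with libraries in columns by group and genes in rows by role (licensing, fork, G1/S regulators, D-type cyclins, mitotic kinases and cyclins, anaphase-promoting complex, spindle and kinetochore). CCNE2, CCND1 and CDK1 are red in the 6 LPS libraries, and UHRF1, E2F8, AURKA and PLK1 are mostly blue there.

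The S-phase and mitotic sets were next set against each other within each library. The mean log2(CPM) of the 20 mitotic genes was 6.21 ± 0.14 at 10% CO2 with LPS and 6.38 ± 0.17 at 5% CO2 with LPS, against 6.54 ± 0.12 and 6.57 ± 0.15 without LPS (SD, n = 3). That of the 27 S-phase genes was 6.41 ± 0.10 and 6.46 ± 0.12 with LPS, against 6.44 ± 0.11 and 6.47 ± 0.10 without it. The 4 S-phase means lay closer together than the 4 mitotic means.

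The difference of the 2 means, S-phase minus mitotic, was 0.20, 0.35 and 0.04 at 10% CO2 with LPS, against −0.09, −0.02 and −0.19 at 10% CO2 without LPS. The 5% CO2 differences were 0.14, 0.11 and −0.01 with LPS, against −0.07, 0.04 and −0.27 without LPS. The groups did not overlap at 10% CO2 and did at 5% CO2. No p is given for these means, because the genes were chosen with earlier results known. Splitting the list as it was given, into 29 and 21 genes with the D-type cyclins inside, gave medians of −0.05 and −0.26 with LPS at 10% CO2, and −0.01 and −0.12 at 5% CO2.

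**Figure D4:**
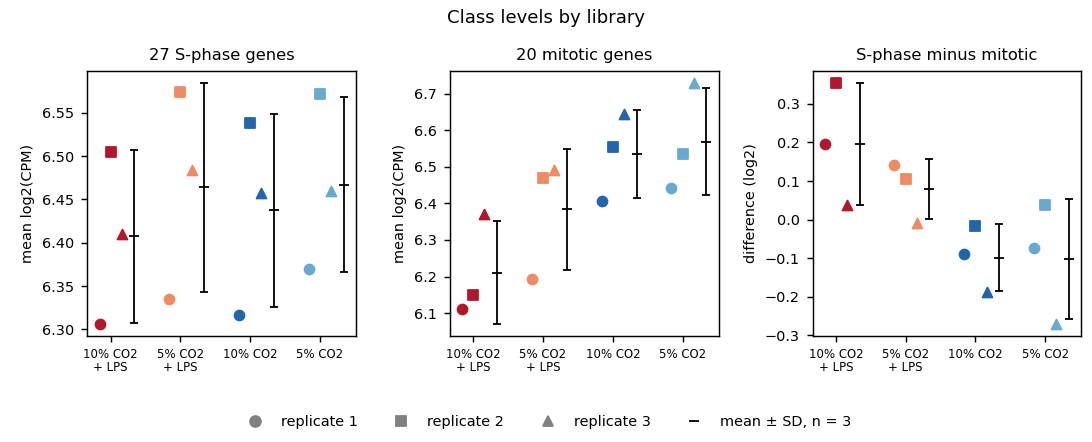
Mean log2(CPM) of the S-phase genes, of the mitotic genes, and their difference (vertical axes, not from 0) in each library by group, with mean ± SD of 3 in black and a symbol for each replicate number. The mitotic means are lowest at 10% CO2 with LPS (6.21 ± 0.14), and replicate 1 is the lowest library of its group in the S-phase and mitotic panels.

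Replicates of the same number resembled each other in these genes. Replicate 1 was the lowest of its group for 24 of 27 S-phase genes at 10% CO2 with LPS, 24 at 5% CO2 with LPS, 22 at 10% CO2 and 17 at 5% CO2. Replicate 2 was the highest for 21, 20, 21 and 19 of these genes in the same groups. For mitotic genes the highest library was replicate 3 for 19 of 20 at 10% CO2 with LPS, 11 at 5% CO2 with LPS, 14 at 10% CO2 and 18 at 5% CO2. Such counts are not given for all genes, so they are not read as particular to this list. Across all genes tested, with group means removed, replicate 1 libraries correlated positively with each other (Pearson's r of 0.1 to 0.29). Pairs of replicates 2 and of replicates 3 had both signs.

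Fewer of these genes were called between the CO2 levels than with LPS. With LPS present, 5 of 49 were called between 10% and 5% CO2 (3 higher, 2 lower), which is 10.2%, where 8.75% of all genes were called (4.29% higher, 4.46% lower). These were CCND1, CDK1 and CCNE2, which rose, and UHRF1 and PLK1, which fell. Their values are given above, and the 10% and 5% CO2 libraries with LPS did not overlap for any of them. The comparison shares its 10% CO2 libraries with the LPS comparison at 10% CO2, and its 5% CO2 libraries with that at 5% CO2, so no likeness between them is read from the values.

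CCND1 rose by 0.42 ± 0.10 at 10% CO2 with LPS (adjusted p = 0.0127). CDK1 rose by 0.37 ± 0.11 (adjusted p = 0.0341) and CCNE2 by 0.42 ± 0.13 (adjusted p = 0.0434). UHRF1 fell by 0.36 ± 0.10 (adjusted p = 0.0259) and PLK1 by 0.55 ± 0.16 (adjusted p = 0.047). None of the 5 calls held in each of the 12 fits without 1 library. CCND1 was lost if replicate 2 was left out, either that at 10% CO2 with LPS (0.44, adjusted p = 0.0549) or that at 5% CO2 with LPS (0.43, adjusted p = 0.0509). CCNE2, CDK1 and PLK1 were lost in 6, 4 and 8 fits, with adjusted p up to 0.249, 0.169 and 0.213, each without 10% CO2 with LPS replicate 2. UHRF1 was lost in 4 fits, with adjusted p up to 0.173 without 5% CO2 with LPS replicate 2.

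With the GC correction, CCND1 remained called and CDK1 (0.21, adjusted p = 0.177), CCNE2 (0.33, adjusted p = 0.0648), UHRF1 (−0.26, adjusted p = 0.0539) and PLK1 (−0.44, adjusted p = 0.0908) did not, while KIF11 became called (−0.40, adjusted p = 0.0106). With only the compared groups CCNE2 was lost (0.42, adjusted p = 0.0853) and MCM5 was called (−0.26, adjusted p = 0.0446). The GC-corrected split was 1 higher and 1 lower. Across the 27 S-phase genes the log2 change at 10% CO2 with LPS had Pearson's r of −0.61 with exonic GC content, and across the 20 mitotic genes −0.69, in the same libraries and without independence between genes. For LPS against no LPS these r were −0.407 (S-phase) and −0.575 (mitotic) at 10% CO2, and −0.33 and −0.398 at 5% CO2. The S-phase genes had a median GC content of 51.1% and the mitotic genes 46.3%. INTS8, which lies opposite CCNE2, also rose here (0.37, adjusted p = 0.0297).

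Most other changes with LPS present were negative and not called. The median change was −0.16 for mitotic genes, with 18 of 20 negative, and −0.10 for S-phase genes, with 19 of 27 negative. For all genes the median was −0.01, with 51.1% negative. Without 10% CO2 with LPS replicate 1 the S-phase median was 0.01. The next smallest p-values were those of KIF11 (−0.29 ± 0.10, adjusted p = 0.0785), AURKA (−0.31 ± 0.12, adjusted p = 0.0947), CCND3 (−0.23 ± 0.09, adjusted p = 0.103) and E2F2 (−0.34 ± 0.13, adjusted p = 0.111). The 10% and 5% CO2 groups did not overlap for 16 of 49 genes, beside 31.4% of all genes.

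Without LPS, edgeR called 0 of 49 genes between 10% and 5% CO2, where 1.46% of all genes were called (0.799% higher, 0.665% lower), and 4 genes had an unadjusted p under 0.05. DESeq2 also called 0. Nearest to a call were CCND1 (0.33 ± 0.10, adjusted p = 0.108), GINS2 of the helicase complex (0.29 ± 0.11, adjusted p = 0.163), E2F8 (−0.27 ± 0.10, adjusted p = 0.186) and the polymerase gene POLE (−0.20 ± 0.09, adjusted p = 0.243). Among mitotic genes CDK1 was at 0.17 (95% interval −0.08 to 0.41), MKI67 at −0.27 (−0.65 to 0.12) and TPX2 at −0.15 (−0.40 to 0.09). CCND1 passed with the GC correction (0.35, adjusted p = 0.0496). Class medians were −0.02 for mitotic, −0.03 for S-phase and −0.01 for all genes, and the groups did not overlap for 4 of 49 genes, beside 20.7% of all genes.

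**Figure D5:**
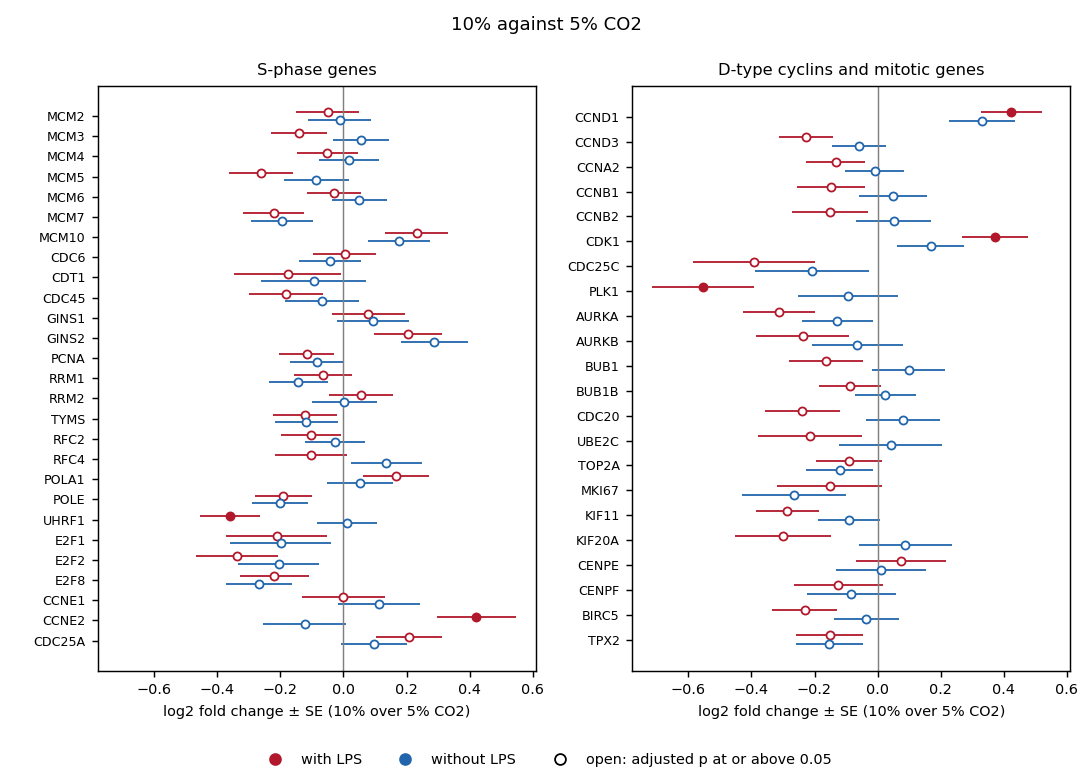
Log2 fold change at 10% over 5% CO2 (horizontal axis, points ± SE) for each tested gene, with LPS (red) and without LPS (blue), with filled points where the adjusted p was under 0.05. The 5 filled points are all with LPS: CCND1, CDK1 and CCNE2 right of 0, UHRF1 and PLK1 left of it.

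Averaged over LPS, 7 of 49 genes were called between 10% and 5% CO2, where 16.8% of all genes were called (8.06% higher, 8.69% lower). CCND1 rose by 0.38 ± 0.07 (adjusted p = 0.00194), which held in each of the 12 fits without 1 library. CDK1 rose by 0.27 ± 0.07 (adjusted p = 0.0189) and GINS2 by 0.25 ± 0.08 (adjusted p = 0.0314). POLE, E2F8, MCM7 and E2F2 fell by 0.20, 0.24, 0.21 and 0.27 (adjusted p = 0.0388, 0.033, 0.0448 and 0.0476). The 6 calls other than CCND1 were each lost in 3 to 10 of those fits, with adjusted p up to 0.0579 (CDK1, without 5% CO2 replicate 1), 0.104 (GINS2, without 10% CO2 replicate 2), 0.137 (MCM7, without 5% CO2 replicate 2), and 0.141, 0.106 and 0.175 (POLE, E2F8 and E2F2, each without 5% CO2 with LPS replicate 2). The GC correction ended the calls of CDK1 (0.18, adjusted p = 0.0694), MCM7 (−0.14, adjusted p = 0.0902), POLE (−0.15, adjusted p = 0.0526) and E2F2 (−0.21, adjusted p = 0.11), and added MCM10 (0.18, adjusted p = 0.0454), AURKA (−0.22, adjusted p = 0.0489) and KIF11 (−0.25, adjusted p = 0.00946). With no filter POLE and E2F8 were lost (adjusted p = 0.0624 and 0.0617), and PLK1 was called (−0.32, adjusted p = 0.000361), as it was by DESeq2 (adjusted p = 0.0246).

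The test of whether the LPS change differed between the CO2 levels called 0 of 49 genes by edgeR, where 0.0244% of all genes were called, and 2 genes had an unadjusted p under 0.05. DESeq2 called 0. These 2 were CCNE2, whose LPS change was larger at 10% CO2 by 0.55 ± 0.18 (adjusted p = 0.598), and UHRF1, at −0.37 ± 0.13 (adjusted p = 0.68). Among mitotic genes the smallest p-values were those of PLK1 (−0.46, 95% interval −0.98 to 0.06), CDC20 (−0.32, −0.71 to 0.07) and KIF20A (−0.39, −0.88 to 0.10). The larger LPS changes at 10% CO2 were therefore not shown to differ from those at 5% CO2 for any single gene of the list.

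Other genes of the same processes were counted from longer lists. Of 79 other mitosis genes, 25 fell and 4 rose with LPS at 10% CO2, and 19 fell and 4 rose at 5% CO2, with medians of −0.14 and −0.12. The shares called, 36.7% and 29.1%, were close to the 35.2% and 24.9% of all genes. Of these mitosis genes, 18 fell and 2 rose at both levels. The smallest p-values were those of ARHGAP11A (−1.07 and −1.01), the centromere chaperone HJURP (−0.96 and −0.96), the kinesin KIF18B (−1.10 at 10% CO2) and LMNB1, a nuclear lamin (−0.63 at 10% CO2). Of 61 other replication genes, 9 fell and 5 rose at 10% CO2, and 4 fell and 3 rose at 5% CO2, with medians of −0.03 at each and shares called of 23% and 11.5%, below those of all genes. TICRR, of origin firing (−0.75 and −0.83), and ORC1 and ORC5 of the origin recognition complex (−0.59 and −0.59 at 10%, −0.42 and −0.41 at 5%) fell at both.

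Of 38 tested cell cycle regulators, 8 rose and 6 fell with LPS at 10% CO2, and 6 rose and 6 fell at 5% CO2. The shares called were 36.8% and 31.6%, beside 35.2% and 24.9% of all genes. E2F7, a repressor related to E2F8, rose by 2.35 ± 0.10 (adjusted p = 3.56e-13) and 2.22 ± 0.10 (adjusted p = 1.02e-12), against the fall of E2F8. CDK6, the kinase partner of D-type cyclins, rose by 1.23 and MDM2 by 0.73 at 10% CO2. CCNF, a cyclin of G2, fell by 0.92 at 10% and 0.95 at 5% CO2, and CCNG2 fell by 1.13 at 5% CO2. Between 10% and 5% CO2 with LPS, 4 regulators rose and 6 fell (26.3%), among them CDK6 (0.46), FZR1, an activator of the anaphase-promoting complex (−0.51), and TFDP2, an E2F partner (−0.58). There, 4 other mitosis genes fell, 5.1% beside 8.75% of all genes, among them INCENP (−0.45), TACC3 (−0.39) and KIF23 (−0.44). That count was 7 with no filter, 8 with only the compared groups, 12 with the GC correction and 6 with DESeq2, which also called 1 higher, and it was 0 without replicate 1 or replicate 2 of 10% CO2 with LPS, or without replicate 2 of 5% CO2 with LPS. Without 10% CO2 with LPS replicate 2 edgeR also called 0 regulators. Of the other replication genes 2 fell and 1 rose: LIG1, the ligase of the lagging strand (−0.43), ORC1 (−0.38) and WDHD1 (0.37). Without LPS the fit reported, by edgeR, called 0 genes of the 3 lists between the CO2 levels, while 6 mitosis, 9 replication and 15 regulator genes had an unadjusted p under 0.05. DESeq2 called 1 higher and 2 lower in each of the replication and regulator lists, and 0 mitosis genes. With the GC correction 1 regulator was higher and 7 lower, 1 replication gene was higher and 2 lower, and 1 mitosis gene was lower.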

How the data were processed

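Gene expression was measured by paired-end sequencing of poly(A)-selected RNA in 12 libraries. The authors deposited 1 table per library, holding unnormalized counts of reads for each Ensembl gene. Per the submitters' processing notes, the tools were Trimmomatic 0.36, STAR 2.5.2b and the Subread 1.5.2 counter featureCounts, and the build was GRCh38; how strand and multimapped reads were handled, and which annotation release was used, is not given in the sources used here, so overlapping and antisense genes cannot be told apart. Of 16 listed genes that share exon bases with another gene, 10 had a tested partner.

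Tests used R 4.3.3 with edgeR 4.0.16 (TMM, the filterByExpr default per group, robust quasi-likelihood test, 1 model of 4 group means over all 12 libraries, Benjamini-Hochberg over 16402 genes); the common coefficient of variation was 10.7%. Symbols were matched for 98.1% of identifiers, and 0 per-sample columns were left out. No 2 replicates of a group looked like 1 library deposited again (chi-square over degrees of freedom 8.91 to 29.2). The SE is the absolute log2 change over the square root of F. The 95% intervals use the residual degrees of freedom alone, so they are wider than the test implies. Without molecular identifiers, the 3-count floor reflects counting error alone. The test was also run on simulated counts, for the CO2 comparison without LPS only. Those counts held no replicate effect, so that run does not vouch for the calls reported.

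Members and lists were chosen with earlier results of these data known. Values by library are given for at most 14 called genes with the smallest adjusted p, and for MKI67, PCNA, MCM2, CDK1, CCND1, CCND2 and CCND3. Changes are given for the 3 genes of each class with the smallest p in a comparison, and of other lists for at most 4 called genes. Changes of the other listed genes were added after their values were seen. Alternatives were RLE size factors, DESeq2 1.42.0, no filter, only the compared groups, replicate number as a block, offsets for exonic GC content, and each library left out. Promoter letters were searched in RefSeq windows, all 55 equal to the GRCh38 sequence.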

Additional observations from a re-analysis of the deposited data

How the results depend on the processing

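Replicate numbers paired the libraries in part. The correlation of same-numbered residuals over 18 pairs ran from −0.14 to 0.29, beside −0.29 to 0.21 for unlike numbers. Every pair of replicate 1 libraries was positive, at 0.1 to 0.29, while pairs of replicates 2 and of replicates 3 had both signs. In all, 5 of 12 libraries correlated best with their own number. The fit reported holds no block, because the labels state none. As a hint from the data only, the replicate block called 699 genes without LPS (240 in the fit reported), 11 for the interaction (4), and 8 list genes with LPS (5) and 14 averaged (7). With the GC correction as well, the block called 1989, 2955, 33 and 4634 genes for CO2 without and with LPS, the interaction and the average, and of the list 3 genes for CO2 without LPS, 16 for CO2 with LPS, 35 and 23 for LPS at 10% and 5% CO2, and 17 averaged. MCM2 then changed sign with LPS at 10% CO2 (0.15, adjusted p = 0.0216; −0.01 in the fit reported). The GC correction alone called 848 genes without LPS and 2 list genes with LPS. No low-count filter gave 572 genes without LPS and 108 for the interaction, DESeq2 669 and 55, RLE 1 for the interaction, and a fit of the compared groups only 71 without LPS. For CO2 with LPS the block called 13 other mitosis genes lower and 1 higher, and 26 lower and 1 higher with the GC correction. The cause was not tested.

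Leaving out 1 library gave 0 (without 10% CO2 replicate 2) to 511 genes for CO2 without LPS, 271 (without 10% CO2 with LPS replicate 2) to 1804 for CO2 with LPS, 1 to 37 for the interaction and 1664 to 3005 averaged. List genes ranged from 0 (without replicate 2 of either LPS group) to 5 for CO2 with LPS, 13 to 22 for LPS at 10%, 7 to 13 for LPS at 5% and 1 to 10 averaged. The S-phase median for CO2 with LPS ranged from −0.14 to 0.013. The mitotic median with LPS stayed negative in every setting run, at −0.38 to −0.23 at 10% CO2 and −0.19 to −0.04 at 5% CO2 without 1 library. CCND2, at 42 counts in all, was too low to test.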
